A study of Mus musculus with 6 samples.

Results

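The genes described here encode the insulin-like growth factor IGF1, the receptors that bind IGFs and insulin, and the binding proteins that hold IGFs outside the cell. The set was defined by symbol: Igf1, Igf1r, Igf2r, Insr and Igfbp2, Igfbp3, Igfbp4, Igfbp5 and Igfbp6, 9 genes in all. Of these, 7 had a row among the 16540 genes of the table and all 7 passed the filter on low values, while Igfbp2 and Igfbp5 are not analysed here. The question of the series, per its title, was the need of fibroblasts for pyruvate carboxylase, the mitochondrial enzyme that makes oxaloacetate from pyruvate, in producing collagen. RNA was sequenced from NIH-3T3, an established mouse fibroblast line of NIH/Swiss origin. All groups carried lentiviral Cas9 and 1 guide RNA, were selected with puromycin at 2 ug/mL and were used as uncloned pools, which can hold unedited cells. The control pool carried R26 sg1 (2 libraries), and the other pools carried PC sg2 (2 libraries) or PC sg5 (2 libraries), guides to the pyruvate carboxylase gene Pcx. Every group, the control included, spent its last 48 h in DMEM with 0.2 mM glutamine and 10% dialyzed serum, so no other glutamine level or serum is compared here. The labels do not say if the 2 libraries of each group are separate cultures, and the p-values therefore reflect library-to-library spread that may be technical.

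IGF1 and IGF2 act through the receptor tyrosine kinase IGF1R, and insulin through the closely related INSR. Both receptors pass the signal to the insulin receptor substrates, PI3 kinase and AKT, which promote growth and survival. IGF2R, also the cation-independent mannose 6-phosphate receptor, has no kinase: it carries IGF2 and lysosomal enzymes to the lysosome. The binding proteins hold IGFs with high affinity and limit or prolong their access to receptors, and proteases such as PAPP-A cut them and free the ligand. In fibroblasts, where these genes are widely studied, IGFs are secreted and act on the same or neighbouring cells.

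Recovered reads per library ranged from 22895172 (PC sg5 replicate 2) to 71710049 (control replicate 2), and each member had between 45 and 42511 reads in a library. For the targeted gene Pcx the controls held 2914 and 3015 normalised counts, the PC sg2 libraries 316 and 375, and the PC sg5 libraries 713 and 716. All 8 fibroblast markers chosen to check the cell line had a row. Their sum was 1619340 to 1676468 normalised counts in control libraries and 922889 to 956920 in PC libraries. Fn1, the largest part of the sum, had a PC mean of 81.0% of the control, and Col1a2 of 55.9%. The other fibroblast markers stood lower, from 32.7% (Pdgfra) to 49.8% (Pdgfrb). Of markers of other cell types, 1 of 5 for adipocytes, 1 of 4 for skeletal muscle, 1 of 5 for epithelium, 4 of 5 for leukocytes and macrophages and 2 of 4 for endothelium had a row, and the markers of osteoblasts and hepatocytes are not analysed here. The leukocyte and macrophage markers summed to 538 to 652 normalised counts in control libraries and 211 to 278 in PC libraries. Their PC means ran from 14.6% of the control (Mpeg1) to 102% (Cd68). The muscle marker Des stood at 72.3 to 90.6 in control libraries and 11.7 to 26.3 in PC libraries. The epithelial marker Cdh1 stood at 57.4 to 58.7 and 8.55 to 19.1, and the adipocyte marker Fabp4 at 17.9 to 20.3 and 2.14 to 10.1. The endothelial markers summed to 36.3 to 45.5 and 32.4 to 53.0. No marker with a row was at 0 in any library, and the part of these genes in the results was not tested.

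The question was how transcripts of the IGF family differed in pools with a guide to Pcx. Igf1 and the binding protein genes Igfbp3, Igfbp4 and Igfbp6 fell, the receptor genes Igf1r and Insr moved by small amounts in opposite directions, and Igf2r was nearly level. Values are normalised counts, the authors' read counts divided by a size factor of each library. Tests used limma on log2(normalised count + 1) over all 6 libraries with Benjamini-Hochberg adjustment, and a gene with an adjusted p under 0.05 is called higher or lower. The control carried 1 guide, so an effect of the guides to Pcx cannot be told apart from a difference between uncloned pools. With both PC guides together against the control, 6 of the 7 tested members were lower and 1 was higher. Of all 16526 genes tested, 33.6% were called lower, 34.3% higher and 67.9% either way in that comparison, so a call by itself is the common outcome in these libraries. At least a 2-fold fall was seen in 3 members (Igf1, Igfbp4 and Igfbp6), against 11.3% of all tested genes. In 5 members all PC libraries lay below both controls (36.6% of all tested genes did), in 1 all lay above (also 36.6%), and only Igf2r overlapped. The median log2 fold change was -0.80 over the 7 members and -0.01 over all tested genes. Igf2r is the weakest of the 6 lower calls: under quantile normalisation it turned higher, which made the split 5 lower and 2 higher.

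**Figure D1:**
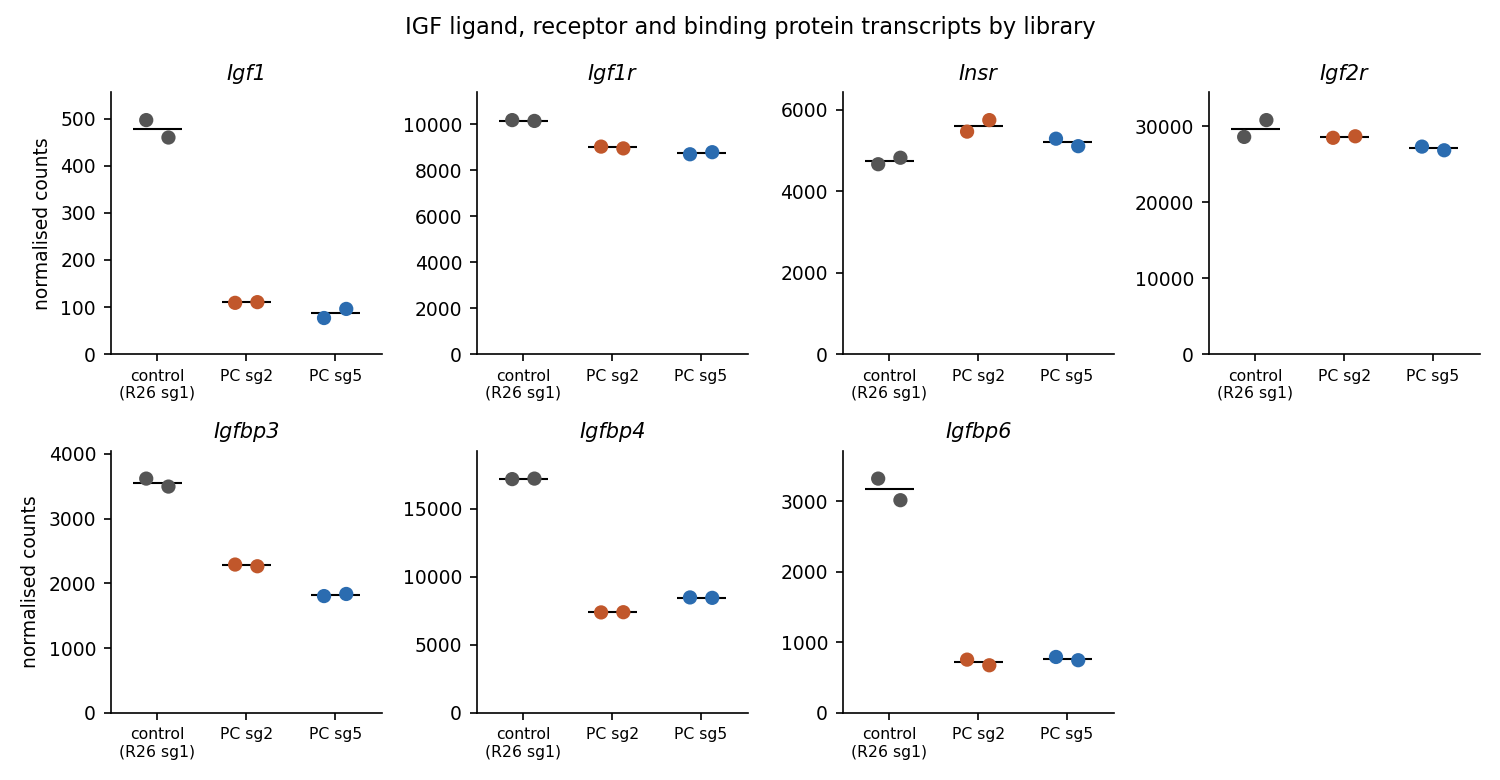
Normalised counts (vertical axes, each starting at 0) of the 7 analysed members in 2 control libraries (grey), 2 PC sg2 libraries (orange) and 2 PC sg5 libraries (blue). Points are libraries and lines are group means: Igf1, Igfbp3, Igfbp4 and Igfbp6 lie far below both controls in all 4 PC libraries, Insr lies above them, and Igf2r (higher only under quantile normalisation) has its groups close together.

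Promoter sequences are shown for the members with the deepest falls, Igf1 and Igfbp6, and for Igf2r, which moved least and held the most motif matches. They are the 250 bases before a RefSeq transcript start on GRCm38.p6, read 5′ to 3′ on the gene's strand, at chr10:87860861-87861110 (plus), chr15:102143936-102144185 (plus) and chr17:12769707-12769956 (minus). Capitals mark matches to the searched motifs.
Igf1: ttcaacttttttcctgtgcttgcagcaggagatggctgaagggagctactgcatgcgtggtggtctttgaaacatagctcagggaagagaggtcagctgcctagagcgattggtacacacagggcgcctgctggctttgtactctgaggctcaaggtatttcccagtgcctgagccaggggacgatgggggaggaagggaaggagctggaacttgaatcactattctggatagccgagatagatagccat
Igfbp6: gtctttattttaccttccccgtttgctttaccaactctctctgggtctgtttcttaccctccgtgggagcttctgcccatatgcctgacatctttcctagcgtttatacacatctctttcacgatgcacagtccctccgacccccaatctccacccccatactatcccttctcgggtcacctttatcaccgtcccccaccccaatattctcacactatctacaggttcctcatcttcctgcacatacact
Igf2r: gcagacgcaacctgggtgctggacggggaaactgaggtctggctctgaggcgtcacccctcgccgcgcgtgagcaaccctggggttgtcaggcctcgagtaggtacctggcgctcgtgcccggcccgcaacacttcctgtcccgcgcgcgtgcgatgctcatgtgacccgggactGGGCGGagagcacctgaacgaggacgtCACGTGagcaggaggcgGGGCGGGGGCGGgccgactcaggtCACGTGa
This RefSeq start of Igf1 lies inside the GENCODE gene, downstream of its first annotated base. The RefSeq starts of Igfbp6, Igf2r and Igf1r lie upstream of the first GENCODE base, so motif positions and absences depend on the start used.

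The motifs were GTAAACA (FOXO), TGATGNAA (a site for ATF4 with CHOP), CACGTG (the E-box of Myc and Max) and GGGCGG (the GC box), searched on both strands over 300 bases, 250 before to 50 after the start. Among 32851 such promoters, 3.65%, 3.97%, 7.15% and 35.7% held them, in that order. Of the 7 analysed members 6 had a promoter in the table. The Igf2r promoter held CACGTG at -48 and -7 and GGGCGG at -75, -31 and -25, counting back from -1 just before the start, and the last 2 matches lie next to each other without overlap. The Igf1r promoter held GGGCGG at -43 and -26. Those of Igf1, Igfbp3, Igfbp4 and Igfbp6 had no match to the 4 motifs, which says only that these letters are not in this window. The 250 bases before the start were 49.6% G and C for Igfbp6 and 52.8% for Igf1, against 69.2% for Igfbp4 and Igf2r, 73.2% for Igfbp3 and 77.6% for Igf1r. A match is a description of the sequence and no binding was measured.

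Igf1, the ligand, fell the most. The controls held 497 and 459.8 normalised counts, the PC sg2 libraries 109 and 111, and the PC sg5 libraries 76.9 and 96.2. All 4 PC libraries lay far below both controls, with no overlap. The mean went from 478 ± 26.1 (SD, n = 2) to 98.2 ± 15.6 (SD, n = 4), which is 20.5% of the control. The log2 fold change was -2.29 ± 0.15 (SE; limma, Benjamini-Hochberg adjusted p = 1.10e-11), and 1.45% of tested genes had a lower value. Igf1 is also the least precise member, since PC sg5 replicate 2 held 45 reads of it. In bulk RNA from a pool, fewer cells that express a gene and less of its RNA per cell cannot be told apart. Igf1 (ENSMUSG00000020053) lies on GRCm38 chromosome 10, 87858265 to 87937042, on the plus strand, and its printed promoter held none of the searched motifs.

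The receptor tyrosine kinase genes changed little in comparison. Normalised counts of Igf1r were 10175 and 10139 in control libraries, 9024 and 8946 in PC sg2 libraries and 8691 and 8781 in PC sg5 libraries. Every PC library was below both controls, and the replicates of each group lay close to each other. The mean fell from 10157 ± 25.6 (SD, n = 2) to 8860.3 ± 152 (SD, n = 4), 87.2% of the control, a log2 fold change of -0.20 ± 0.03 (SE; limma, Benjamini-Hochberg adjusted p = 1.50e-06). Igf1r (ENSMUSG00000005533) lies on GRCm38 chromosome 7, 67952827 to 68233668, on the plus strand.

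Insr, the insulin receptor gene, was the one member that rose. Its normalised counts were 4662 and 4821 in control libraries, 5461 and 5744 in PC sg2 libraries and 5288 and 5104 in PC sg5 libraries. All PC libraries were above both controls, PC sg2 further than PC sg5. The mean went from 4741 ± 112 (SD, n = 2) to 5399 ± 272 (SD, n = 4), 113.9% of the control, and the log2 fold change was 0.19 ± 0.03 (SE, limma Benjamini-Hochberg adjusted p = 6.99e-05). Insr (ENSMUSG00000005534) lies on GRCm38 chromosome 8, 3122061 to 3279617, on the minus strand. Per kilobase of annotated exon the ratio of Insr to Igf1r levels was 0.560 and 0.581 in control libraries and 0.710 to 0.784 in PC libraries. With coding length the same ratio went from a mean of 0.458 to 0.598, and with mean transcript length from 1.06 to 1.39. Which receptor had the higher level thus depends on the length used. A length scales the ratio equally in every library, so it could not change the order of PC and control libraries. That order also follows from Insr lying above and Igf1r below both controls in all PC libraries.

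Igf2r, the receptor that clears IGF2, had the smallest change of the 7 members. The control libraries held 28613 and 30827 normalised counts, the PC sg2 libraries 28496 and 28696, and the PC sg5 libraries 27338 and 26856. PC sg2 replicate 2 lay above control replicate 1, so the groups overlapped, and the controls differed from each other by more than PC sg2 did from the lower control. The log2 fold change of both guides was -0.094 ± 0.03 (SE; limma, Benjamini-Hochberg adjusted p = 0.00331), and it turned to 0.089 (adjusted p = 0.00218) under quantile normalisation. Without control replicate 2 it was -0.040 and not past the threshold (adjusted p = 0.260), nor was it past it without the intensity trend (adjusted p = 0.141) or with the 50 most abundant genes left out of the scaling (-0.049, adjusted p = 0.0708). Over all alternatives the adjusted p ranged from 0.000180 to 0.260. Igf2r (ENSMUSG00000023830) lies on GRCm38 chromosome 17, 12682406 to 12769664, on the minus strand.

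Igfbp6 encodes a binding protein known for its preference for IGF2 over IGF1, and it fell almost as far as Igf1. The controls held 3324 and 3017 normalised counts, the PC sg2 libraries 754 and 674, and the PC sg5 libraries 792 and 746. The PC libraries all lay below both controls, and the guides overlapped each other. The mean fell from 3171 ± 217 (SD, n = 2) to 742 ± 49.3 (SD, n = 4), 23.4% of the control. The log2 fold change was -2.10 ± 0.06 (SE), the limma Benjamini-Hochberg adjusted p was 1.64e-17, and 2.19% of tested genes had a lower value. Igfbp6 (ENSMUSG00000023046) lies on GRCm38 chromosome 15, 102144362 to 102149511, on the plus strand, and like Igf1 it had no searched motif in its printed promoter.

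Igfbp4, whose product is known mainly as an inhibitor of IGF action and as a substrate of PAPP-A, fell in every PC library. It stood at 17176 and 17213 normalised counts in control libraries, 7377 and 7392 in PC sg2 libraries and 8478 and 8447 in PC sg5 libraries. The 3 groups were separate and their replicates nearly equal, with PC sg2 lowest. The mean fell from 17195 ± 26.2 (SD, n = 2) to 7924 ± 623 (SD, n = 4), 46.1% of the control, a log2 fold change of -1.12 ± 0.03 (SE; limma, Benjamini-Hochberg adjusted p = 3.00e-19). The log2 fold change was -1.22 with PC sg2 and -1.02 with PC sg5. Both lay outside the 95% interval for both guides together (-1.18 to -1.07).

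Igfbp3 encodes the main carrier of IGFs in blood, which is also secreted by fibroblasts. The control libraries held 3619 and 3496 normalised counts, the PC sg2 libraries 2291 and 2264, and the PC sg5 libraries 1804 and 1836. Here too the groups did not overlap, but PC sg5 was the lowest. The mean fell from 3558 ± 87.2 (SD, n = 2) to 2049 ± 265 (SD, n = 4), 57.6% of the control, and the log2 fold change was -0.80 ± 0.04 (SE, limma Benjamini-Hochberg adjusted p = 1.95e-13). The log2 fold change was -0.64 with PC sg2 and -0.97 with PC sg5. Both lay outside the 95% interval for both guides together (-0.89 to -0.72). Igfbp3 and Igfbp4 both lie on GRCm38 chromosome 11, at 7206086 to 7213923 on the minus strand and at 99041244 to 99054392 on the plus strand. No exon base of any of the 7 members is shared with another annotated gene.

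**Figure D2:**
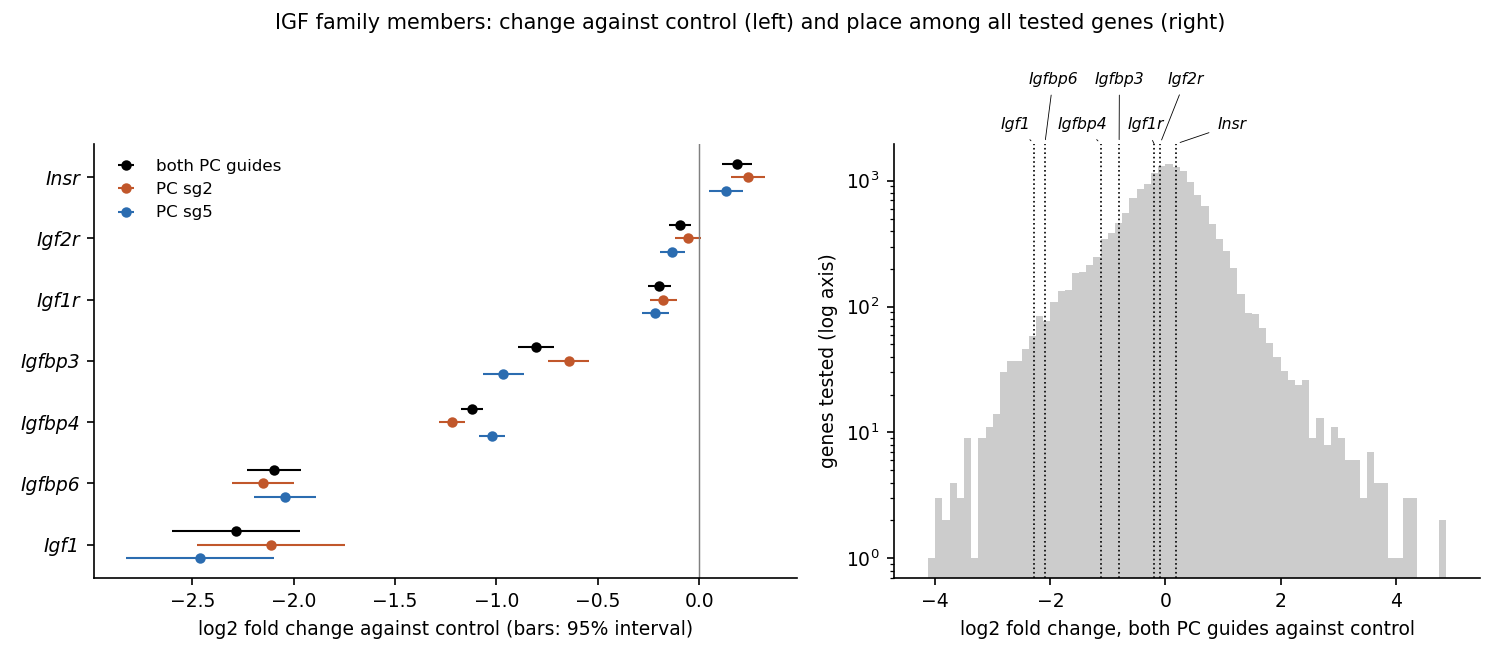
Left, log2 fold change of each member against control with its 95% interval (bars), for both PC guides (black), PC sg2 (orange) and PC sg5 (blue). The black bars leave out the difference between the guides. Right, the same value for both guides (dotted lines) on the histogram of all 16526 tested genes, whose vertical axis is logarithmic: Igf1 and Igfbp6 lie in the lower tail and Igf1r, Insr and Igf2r (which turned higher under quantile normalisation) lie near the centre.

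Each guide by itself gave its largest falls in Igf1 and Igfbp6, with Igfbp6 first for PC sg2 and Igf1 first for PC sg5. Against the control, 6 of 7 members passed the threshold with PC sg2 and 7 of 7 with PC sg5. With PC sg2, 5 members were lower and 1 higher, beside 31.6% and 32.9% of all tested genes (64.5% either way). With PC sg5, 6 were lower and 1 higher, beside 31.8% and 32.6% (64.5% either way). These 2 comparisons share the control libraries. The log2 fold change of Igf1 was -2.11 ± 0.17 (SE) with PC sg2 and -2.46 ± 0.17 with PC sg5, and that of Igfbp6 was -2.15 ± 0.07 and -2.04 ± 0.07. Igf2r did not pass with PC sg2 (-0.055, limma Benjamini-Hochberg adjusted p = 0.121) and was lower with PC sg5 (-0.13, adjusted p = 0.000606), but quantile normalisation gave 0.12 and 0.055. Without control replicate 1 it passed with PC sg2 too (-0.11, adjusted p = 0.00649). Insr was higher by 0.24 ± 0.04 with PC sg2 and by 0.13 ± 0.04 with PC sg5 (adjusted p = 0.00689). The call of Insr with PC sg5 was lost without control replicate 1 (adjusted p = 0.0797), without PC sg5 replicate 1 (adjusted p = 0.0565) and without the intensity trend (adjusted p = 0.0835). The lowest adjusted p for it over the alternatives was 0.000334 and the highest 0.0835.

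The guides were then compared with each other, which tests a difference between their libraries directly. It cannot separate an effect of the guide from a difference between uncloned pools. Igfbp3 was lower with PC sg5 than with PC sg2 and Igfbp4 was higher, so 2 of 7 members passed the threshold, against 0.242% of all tested genes (0.103% lower, 0.139% higher). Neither gene overlapped between the guides, which held for 20.8% of all tested genes in the lower and 18.4% in the higher direction. The PC sg2 mean of Igfbp3 was 2278 ± 18.6 and the PC sg5 mean 1819.9 ± 22.9 (SD, n = 2 each), a log2 fold change of -0.32 ± 0.05 (SE, limma Benjamini-Hochberg adjusted p = 0.00335). For Igfbp4 these means were 7385 ± 10.4 and 8463 ± 21.8 (SD, n = 2 each), a log2 fold change of 0.20 ± 0.03 (SE, adjusted p = 0.00525). Pcx itself was higher with PC sg5 (log2 fold change 1.05 ± 0.08; limma, Benjamini-Hochberg adjusted p = 6.60e-07, and 0.328 without the intensity trend), so Igfbp4 was lower in the pool with less Pcx RNA and Igfbp3 in the pool with more.

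Both guide calls were lost without either PC sg2 library and without the intensity trend, and kept under the other alternatives that gave an adjusted p (DESeq2 gave none for Igfbp3). Without PC sg2 replicate 1 or 2 the adjusted p was 0.0662 or 0.0558 for Igfbp3 and 0.0825 or 0.0943 for Igfbp4, and without the intensity trend no gene passed in this comparison (adjusted p = 0.394 and adjusted p = 0.564). Over the same alternatives the log2 fold change stayed between -0.34 and -0.31 for Igfbp3 and between 0.19 and 0.22 for Igfbp4. For the other 5 members the 95% intervals of the guide difference were -0.71 to 0.01 for Igf1, -0.11 to 0.03 for Igf1r, -0.14 to -0.01 for Igf2r, -0.19 to -0.02 for Insr and -0.04 to 0.26 for Igfbp6. None of these passed after adjustment (limma Benjamini-Hochberg adjusted p between 0.322 and 0.703).

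Levels of different genes can be set side by side only per length. Per kilobase of all annotated exons, the control means were 3894 ± 5.94 normalised counts per kb for Igfbp4, 3193 ± 168 for Igf2r, 2851 ± 195 for Igfbp6, 1137 ± 27.8 for Igfbp3, 605 ± 1.53 for Igf1r, 345 ± 8.18 for Insr and 48.3 ± 2.64 for Igf1 (SD, n = 2 each). On this length, in the PC libraries, Igf2r came first at 2992 ± 95.8, followed by Igfbp4 at 1794 ± 141, and Igf1 was again last at 9.91 ± 1.57 (SD, n = 4 each). That first place depends on the length: Igfbp4 was above Igf2r in the PC libraries with coding length (means of 9524 and 3738) and with mean transcript length (4696 and 3133). Igfbp6 (606 to 712) and Igfbp3 (576 to 732) overlapped in the PC libraries per kilobase of exon, but Igfbp3 lay wholly above Igfbp6 there with coding length (2059 to 2615 against 944 to 1109) and with mean transcript length (873 to 1109 against 606 to 712). In the controls Igfbp6 was above Igfbp3 with each length, by least with coding length (4226 to 4655 against 3991 to 4132). With coding length the controls ran Igfbp4, Igfbp6, Igfbp3, Igf2r, Igf1r, Insr, Igf1, and Igfbp3 (3991 to 4132) and Igf2r (3841 to 4138) overlapped. Igfbp4 was the highest of the 7 members in the controls, and Igf1 the lowest in controls and PC libraries, with each of the 3 lengths used.

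The summed level of the binding protein genes analysed, with Igfbp7 added, was lower in every PC library, as each of these genes was. Igfbp7 encodes a related protein that binds IGFs only weakly. Per kilobase of exon, Igfbp3, Igfbp4, Igfbp6 and Igfbp7 summed to 18370.4 and 18366 normalised counts per kb in control libraries, 7395 and 7126 in PC sg2 libraries and 7711 and 7414 in PC sg5 libraries. The PC mean was 40.3% of the control mean, or 43.2% with coding length and 42.2% with mean transcript length. The share of Igfbp6 in this sum was 16.3% and 14.8% in control libraries and 8.51% to 9.24% in PC libraries. The share of Igfbp3 was 6.29% and 6.08% in control libraries and 7.47% to 10.2% in PC libraries. With the 3 lengths the mean share of Igfbp6 went from 15.5%, 10.4% or 11.1% in the controls to 8.99%, 5.63% or 6.15%. Igfbp6 fell further than the other genes of the sum in every PC library. Its share therefore had to fall with any length, and the other lengths add no separate check. With 4 against 2 libraries no exact permutation test of a share can reach 0.05, so these are descriptions.

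**Figure D3:**
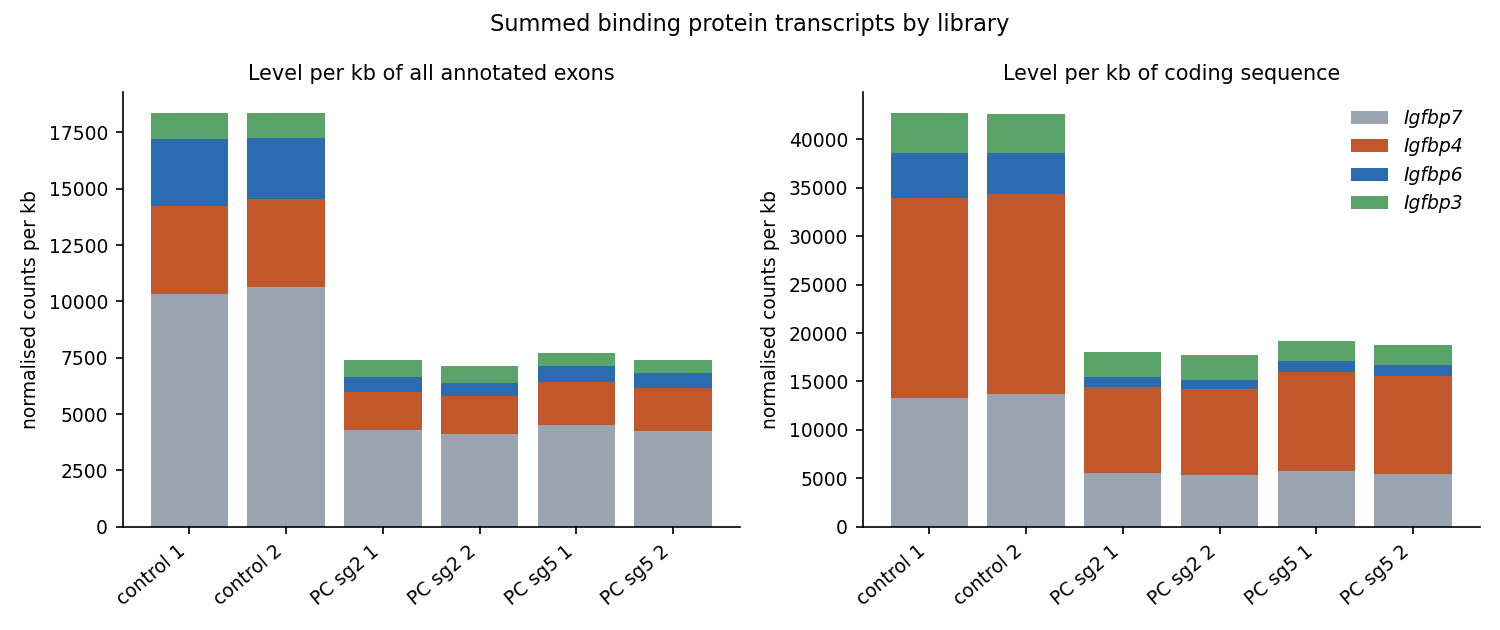
Stacked levels of the 4 analysed binding protein genes in each library, in normalised counts per kilobase of all annotated exons (left) or of coding sequence (right). The bars of the 4 PC libraries reach about 7126 to 7711 on the left against 18366 to 18370.4 in the controls, and the order of Igfbp7 and Igfbp4 depends on the length used.

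To place the members in their pathway, a list of 54 other genes of IGF and insulin signalling was divided by role, and 47 of them were tested. Of these, 29 were lower, 14 higher and 4 not past the threshold with both PC guides, beside 33.6% lower and 34.3% higher over all tested genes. The median log2 fold change of the list was -0.37, against -0.01 over all tested genes. The list was chosen with earlier results of these data known, so these values describe it and test nothing. Genes named here beyond 2 per role and direction were added after their values were seen.

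Igf2, the other ligand, fell alongside Igf1. The control libraries held 4162 and 4459.7 normalised counts, the PC sg2 libraries 987 and 1023, and the PC sg5 libraries 881 and 891. All PC libraries were far below both controls, with a mean of 21.9% of the control and a log2 fold change of -2.19 ± 0.05 (SE, limma Benjamini-Hochberg adjusted p = 2.72e-19). Exons of Gm49394 and Igf2os cover 64.5% of the exon bases of Igf2, and as the use of strand in counting is not stated, their reads cannot be told apart. Igfbp7 fell from 12496 and 12861 normalised counts to between 4984 and 5443 (log2 fold change -1.29 ± 0.03), and exons of Polr2b cover 7.03% of its exon bases. The remaining gene tested in this role, Igfals, which encodes a serum partner of IGF and IGFBP3, was called lower from only 21.6 and 39.9 normalised counts in the controls, and the PC libraries held 2.14 to 8.09, beside a level of 2.18 to 6.41 for 3 reads in a library.

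Genes for enzymes that cut binding proteins, for their inhibitors and for processing of ligands or receptors moved in both directions. Of these 3 were higher and 4 lower, beside 34.3% and 33.6% of all tested genes. Pappa, which encodes the protease PAPP-A that cleaves IGFBP4, rose from 1218 and 1302 normalised counts in control libraries to 3975 and 3966 in PC sg2 libraries and 3947 and 3768 in PC sg5 libraries. Its log2 fold change was 1.64 ± 0.04 (SE, limma Benjamini-Hochberg adjusted p = 1.64e-18), and the PC mean was 311% of the control. Stc2, which encodes stanniocalcin 2, an inhibitor of PAPP-A, rose by a similar factor, from 560.1 and 549 to between 1724 and 1857 (log2 fold change 1.68 ± 0.06). The related inhibitor gene Stc1 fell from 858 and 743 to between 348 and 462, as did the related protease gene Pappa2 (-1.05 ± 0.16). Adam12, a metalloprotease known to cut IGFBP3 and IGFBP5, fell by 1.81 ± 0.14, Furin, a convertase that processes the IGF1 receptor precursor, fell by 0.52 ± 0.04, and the serine protease gene Htra1 rose by 0.32 ± 0.04 on the log2 scale.

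The receptor substrates moved apart. Irs1 fell from 8057 and 8351 normalised counts in control libraries to 3656 and 3595 in PC sg2 libraries and 3925 and 3957 in PC sg5 libraries, a log2 fold change of -1.12 ± 0.03 (SE, limma Benjamini-Hochberg adjusted p = 1.47e-17). Irs2 rose from 3719.9 and 3748 to between 5049.9 and 5489, a log2 fold change of 0.49 ± 0.04 (adjusted p = 8.14e-11). For neither gene did the PC libraries overlap the controls. Exons of Gm9747 cover 30.9% of the exon bases of Irs1. Over the 7 tested adaptors 4 rose (Irs2, Sos1, Sos2 and Grb2) and 3 fell (Irs1, Shc1 and Gab1). The shares over all tested genes were 34.3% higher and 33.6% lower. Sos1 had a log2 fold change of 0.38 and Shc1 of -0.75.

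Kinase genes below the receptors and brakes on the pathway moved in both directions. Of 10 PI3 kinase and AKT genes 3 rose, 6 fell and Akt2 did not pass (log2 fold change 0.03). Over all tested genes 34.3% were called higher and 33.6% lower. The catalytic subunit gene Pik3cb rose by 0.73 ± 0.06 (SE), Pdpk1 by 0.30 ± 0.03, and the regulatory subunit genes Pik3r3 and Pik3r2 fell by 0.92 ± 0.06 and 0.40 ± 0.03. Exons of Gm49337 cover 24.3% of the exon bases of Pik3r3. Of 13 brakes 9 fell, 3 rose and Phlpp2 did not pass, beside the same shares over all tested genes. The cytokine signalling suppressor gene Socs3 fell by 1.70 ± 0.04 on the log2 scale. Trib3, whose product can bind AKT and which is a known ATF4 target, rose from 2062 and 2024 normalised counts to between 10645 and 11468 (log2 fold change 2.42 ± 0.03), and Grb10, an adaptor that restrains both receptors, rose by 0.26 ± 0.02.

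FOXO transcription factors, most of which AKT keeps out of the nucleus, fell in 3 of 4 cases, beside 33.6% of all tested genes. Foxo3 had a log2 fold change of -0.73 ± 0.04 (SE), Foxo4 of -0.37 ± 0.05 and Foxo6, at under 110 normalised counts in every library, of -1.49 ± 0.33, while Foxo1 did not pass (-0.06, limma Benjamini-Hochberg adjusted p = 0.542). Of the genes for proteins that bind Igf2 messenger RNA, Igf2bp2 rose by 0.34 ± 0.03, Igf2bp3 fell by 0.52 ± 0.04, and Igf2bp1 did not pass (0.06, adjusted p = 0.105). Exons of Malsu1 cover 18.7% of the exon bases of Igf2bp3.

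**Figure D4:**
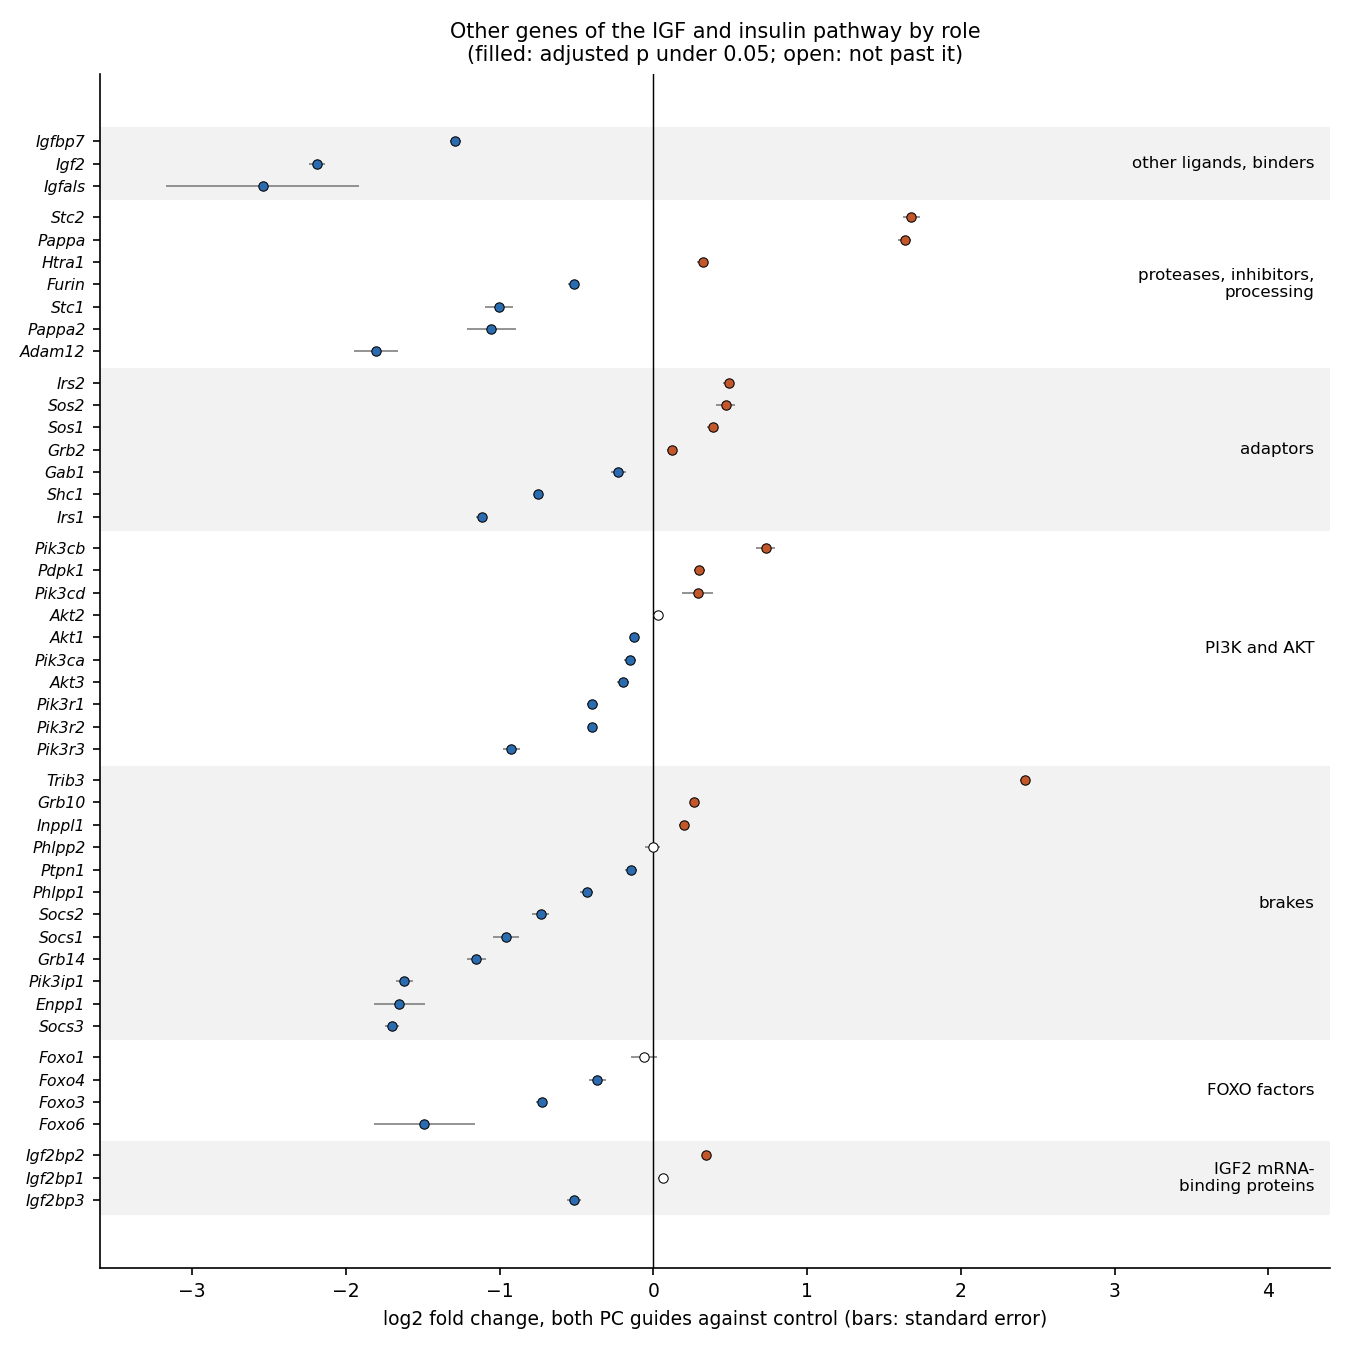
Log2 fold change with both PC guides against control (horizontal axis, bars are standard errors) of the tested pathway genes reported here, grouped by role; filled points passed the threshold (orange higher, blue lower) and open points did not. Trib3, Stc2 and Pappa lie furthest to the right, and Igfals, Igf2 and Adam12 furthest to the left.

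The genes whose profile over the 6 libraries lay closest to that of the highest and of the lowest called member were listed, among 11775 other genes whose mean was 100 normalised counts or more. Likeness was the root mean square difference of log2 values after each gene's own mean was removed. Armc5 (0.02) and Zmat3 (0.02) were among the closest 3 to Insr, and the closest to Igf1 were H2-T-ps (0.08), Peg3 (0.09) and H2-T23 (0.10). H2-T-ps and H2-T23 are related genes, and as the counting settings are not stated, their counts may not be separate.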

How the data were processed

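RNA was poly-A selected, per the labels' protocols. Tools listed in the submitters' processing notes were STAR, featureCounts, Trimmomatic, DESeq2 and bcl2fastq 2.17, with the build GRCm38. The sources used here do not give their settings, annotation or use of strand. Values were deposited by the authors as normalised counts, a signal in which each count is divided by a library size factor. Within each library 100% of values above 0 were whole multiples of 1 step (tolerance 0.01), so reads were recovered; the lowest total for a listed gene was 61. Identifiers were matched to GENCODE M21 (16491 of 16540 received a symbol), which also gave lengths and coordinates. Promoters came from RefSeq (GRCm38.p6).

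limma 3.58.1 (R 4.3.3) was fitted on log2(normalised count + 1) with 3 groups over 6 libraries, an intensity trend and two-sided Benjamini-Hochberg adjustment over the 16526 genes that reached 10 normalised counts in 2 or more libraries. This scale understates changes of low genes. On simulated data for both guides against control with 16478 genes tested, 84% of 100 genes changed by 0.5 and 89% of 100 changed by 1 (log2) were recovered, and 5 unchanged genes were called. No other genes were changed in the simulation, and every gene had the same dispersion. Genes with the lowest means were left out of the changed set, so their recovery was not measured. In the data 67.9% of tested genes were called, so the simulation gives no rate of false calls for them. Alternatives included edgeR 4.0.16 and DESeq2 1.42.0 on recovered reads. The 3-read floor was 2.18 to 6.41 normalised counts per library and covers counting error only.

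The members, the pathway list and the motifs were chosen with earlier results of these data known. The members and Pcx are named whatever their result, with Igf2, Igfbp7, Irs1, Irs2 and up to 2 genes per role and direction with the smallest adjusted p. A gene chosen by this rule and a gene close to Insr in profile are not reported here, though counts over lists include them.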

Additional observations from a re-analysis of the deposited data

Results flagged for a closer look

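The level of 2 members differed between the PC sg5 and PC sg2 libraries by the direct test. The libraries of a guide are not stated to come from separate pools, so a guide effect and a pool difference cannot be told apart. For Igfbp3 the log2 fold change was -0.32 (limma Benjamini-Hochberg adjusted p = 0.00335), with both PC sg5 libraries below both PC sg2 libraries. For Igfbp4 it was 0.20 (adjusted p = 0.00525), with both PC sg5 libraries above both PC sg2 libraries. Each adjusted p was above 0.05 when a PC sg2 library was left out (0.0558 to 0.0662 for Igfbp3 and 0.0825 to 0.0943 for Igfbp4), and over the alternatives that gave one it ranged from 0.000250 to 0.394 and from 3.80e-06 to 0.564. Groups of 2 libraries are too small for a test of outlying samples.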

How the results depend on the processing

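With both PC guides against control, each member but Igf2r kept its direction and its call under every alternative run, as did Pcx and the pathway genes named by rule. Igf2r turned to 0.089 with both guides, 0.12 with PC sg2 and 0.055 with PC sg5 under quantile normalisation; the cause was not tested. Quantile normalisation moved the median of all genes to 0.05. edgeR called 11424 genes and DESeq2 10604 with both guides, against 11222 by limma.

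The count of genes that differed between the guides was unstable. It was 40 by limma, 65 with pseudocount 10, 65 when genes with a mean under 50 normalised counts were dropped, 64 with the 50 most abundant genes left out of the scaling, 68 with edgeR, 91 with DESeq2 (of 1468 genes with an adjusted p) and 0 without the intensity trend. Leaving out 1 library gave 10 (without PC sg2 replicate 2) to 218 (without PC sg5 replicate 1), where the lone library of a group is assumed to vary like the others. The members past the threshold between the guides numbered 2, but 0 without the intensity trend, 1 with DESeq2 (of 3 with an adjusted p) and 0 to 2 when 1 library was left out; the cause was not tested.

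With the replicate number as a block, 160 genes differed between the guides and no call of a member changed. Deviations of same-numbered libraries correlated at -0.02 to 0.03 between groups, so the numbers were not treated as pairs. Shares of the summed binding protein level in the PC libraries depend on length: with coding length they were 12.7% (Igfbp3), 51.6% (Igfbp4), 5.63% (Igfbp6) and 30.0% (Igfbp7), and with mean transcript length 43.3% (Igfbp4), 6.15% (Igfbp6) and 41.4% (Igfbp7), against 8.86%, 24.2%, 8.99% and 58.0% per kilobase of exon. Depth limits Igf1 most.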
